A study of Mus musculus with 16 samples.

Results

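Genes of cholesterol synthesis and of its control by SREBP2 were followed in the hippocampus of mice that carry a mutant human tau transgene, lack the oxysterol-making enzyme Ch25h, or both. The 27 genes were the rows of the deposited count table whose gene symbol belongs to a list of pathway enzymes, SREBP2 control genes and sterol transport genes. They were 27 of 55487 genes in the table, and all 27 passed the filter on low counts. In each of the 16 libraries every member had at least 119 reads and at most 10838. Each group held 4 libraries of right hippocampal RNA, taken after PBS perfusion from females at 40 weeks of age. TCKO mice carry the PS19 transgene and the Ch25h knockout, T mice carry the PS19 transgene with Ch25h intact, CKO mice carry the Ch25h knockout alone, and wild type (WT) mice carry neither. PS19 is human tau (MAPT, isoform 1N4R) with the P301S mutation of familial frontotemporal dementia, expressed from the prion protein (PrP) promoter. The knockout is not described as limited to one cell type. No strain background, breeding unit or pooling is named in the labels, and library numbers are not said to stand for separate animals. All p-values therefore refer to variation among the sequenced libraries, which may be technical.

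Libraries held 15064309 to 34348284 reads. Ch25h had 0 to 1 reads in TCKO libraries, 133 to 300 in T libraries, 0 to 2 in CKO libraries and 18 to 40 in WT libraries, and Mapt had 25439 to 26968, 20795 to 26595, 5864 to 10066 and 9695 to 12052 reads in the same groups, so each library matched its label. Neuron, astrocyte, oligodendrocyte and microglia markers were read in every library, and no marker on these lists was at 0 in any library. T 4 and WT 1 stood apart in choroid plexus markers, at 7645 and 7266 summed CPM against at most 416 in the other libraries. WT 1 and WT 5 stood apart in oligodendrocyte markers, at 4845 and 3562 summed CPM against 13341 and 15683 in WT 2 and WT 4. Members whose calls depended on these libraries are named below with their values without them.

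Cells make cholesterol from acetyl-CoA through mevalonate, isoprenoid diphosphates, squalene and lanosterol, followed by a series of changes to the sterol ring. The pathway is controlled by SREBP2, a membrane-bound transcription factor that Scap escorts from the endoplasmic reticulum when sterols are low and that Insig proteins hold back when sterols are high. In the brain, where lipoprotein cholesterol does not enter from blood, the sterol is made locally by glia and neurons. Oxysterols such as the product of Ch25h are known to bind Insig proteins and to keep SREBP2 in the endoplasmic reticulum.

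Promoter sequence was searched for short motifs, and the stretches below were chosen for members with a match to a sterol element or with CCAAT boxes. They are RefSeq sequence on GRCm38.p6, written 5′ to 3′ on the gene's strand, with the matches to the sterol element and the CCAAT box, on either strand, in capitals. The Hmgcs1 stretch is chr13:119690201-119690320 (plus strand) and runs from 150 to 31 bases before the RefSeq start. It is the only member window with the full sterol element TCACNCCAC, and the capitals at its end are a CCAAT box read from the other strand. The bases just after this RefSeq start were not found in a GENCODE M21 transcript of Hmgcs1.
Hmgcs1: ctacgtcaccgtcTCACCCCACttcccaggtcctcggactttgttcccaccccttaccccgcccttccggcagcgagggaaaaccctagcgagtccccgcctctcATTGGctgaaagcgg
The Acat2 stretch is chr17:12960766-12960915 (minus strand) and holds both matches to the looser sterol element CACNCCAC, one on each strand.
Acat2: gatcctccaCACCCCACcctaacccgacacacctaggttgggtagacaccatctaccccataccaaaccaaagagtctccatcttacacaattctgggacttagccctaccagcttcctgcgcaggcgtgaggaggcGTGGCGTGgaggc
The Insig1 stretch, chr5:28071382-28071411 (plus strand), ends at the base before the RefSeq start and lies inside a GENCODE exon of the gene, whose annotated start is earlier.
Insig1: gggcgcggtacgtgtagtgtcGTGGCGTGt
The stretches of Mvd, chr8:122443433-122443497 (minus strand), and Lss, chr10:76531530-76531574 (plus strand), are shown for CCAAT boxes. Neither gene had a match to either form of the sterol element in the 250 bases searched.
Mvd: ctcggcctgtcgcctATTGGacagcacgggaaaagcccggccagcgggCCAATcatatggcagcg
Lss: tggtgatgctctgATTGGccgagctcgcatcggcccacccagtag
The stretch of Insig2, chr1:121332605-121332734 (minus strand), is shown because it holds 3 CCAAT boxes in a gene called in none of the comparisons.
Insig2: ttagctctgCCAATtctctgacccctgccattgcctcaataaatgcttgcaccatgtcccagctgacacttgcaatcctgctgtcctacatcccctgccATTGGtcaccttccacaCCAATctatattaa

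Windows of 250 bases before the start were found for 23 of the 27 genes, 29 windows in all. No sequence is shown for Sqle, Fdps, Fdft1 and Stard4. The full sterol element TCACNCCAC was in 1 of the 29 member windows, against 1.05% of all 32851 mouse windows, and the looser CACNCCAC, which every full match also contains, in 3 (Hmgcs1, Acat2 and Insig1), against 5.29% of all windows. CCAAT was present in 20 of the 29 windows, against 33.85% of all, and the Sp1 box GGGCGG in 22, against 32.74% of all. Each motif was searched on both strands. Among the 23 genes, Acat2, Aacs and Scap had no CCAAT box in any window. A match is a run of letters and not a bound site. Lack of a match does not show that a gene has no such site, since variants and sequence outside the windows were not searched.

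**Figure D1:**
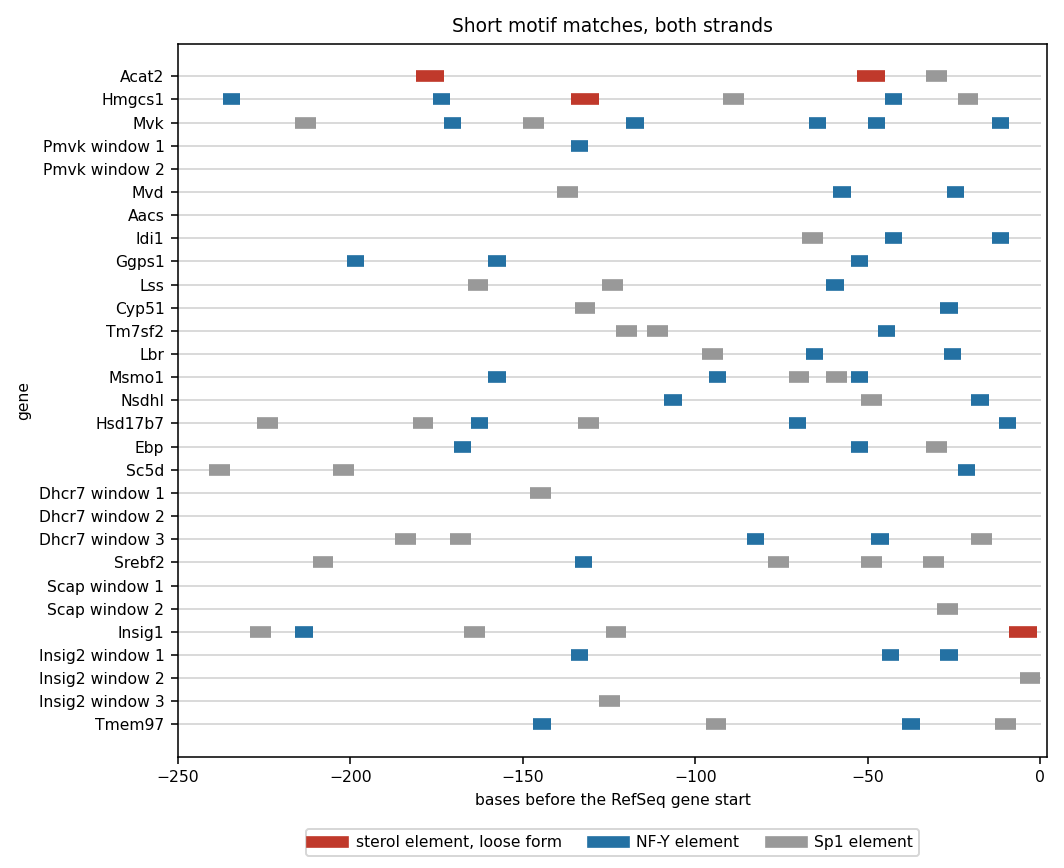
Positions of short motif matches in the 250 bases before the RefSeq gene start (x axis, bases) for 23 genes, one row per start window, on both strands. The 3 genes with the loose sterol element are Acat2, Hmgcs1 and Insig1, while the NF-Y element (CCAAT) lies in 20 windows and the Sp1 element in 22.

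The first comparison set transgenic mice against wild type mice, both with Ch25h. Genes of sterol synthesis fell in T against WT: 22 of the 27 were called lower, 0 were called higher, and Pmvk, Lbr, Ebp, Scap and Insig2 did not pass the threshold. The lowest fold changes were those of Msmo1, Hmgcs1 and Fdft1, a methylsterol oxidase, the synthase of HMG-CoA and squalene synthase, which were 2.34-fold, 2.29-fold and 2.28-fold lower. Over all 18565 genes tested, 11.2% were called lower. The members had a median log2 fold change of -0.63, against -0.01 over all genes tested. For 21 members every T library lay below every WT library, against 11.8% of all genes. In bulk tissue, fewer cells of a type and less RNA per cell cannot be told apart.

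**Figure D2:**
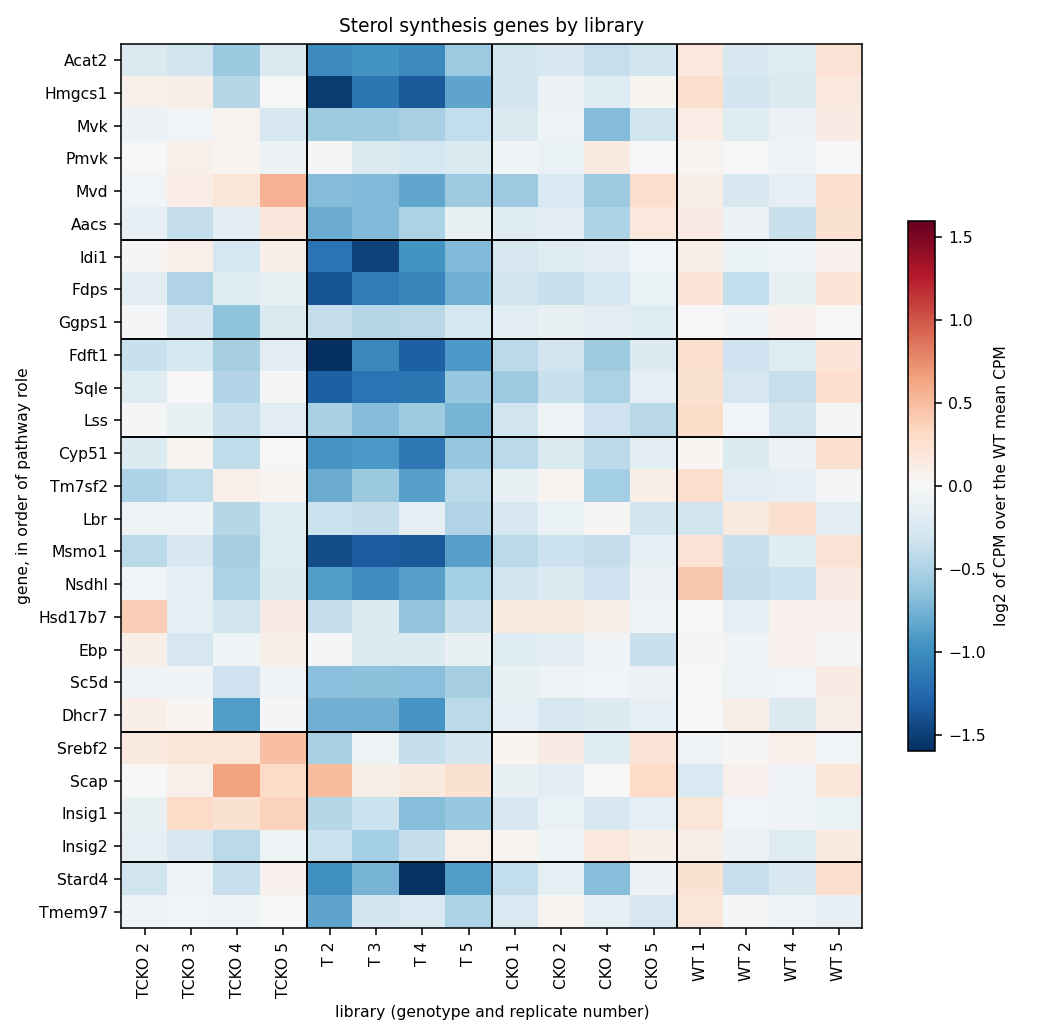
Level of the 27 genes in each of the 16 libraries, as log2 of CPM over the WT mean CPM of the gene (colour), with genes in order of pathway role (black lines part the roles) and libraries by genotype. The T columns are blue for most enzymes, and for 23 genes the lowest of the 16 libraries was a T library, a count not made over all genes.

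Values are CPM, read counts relative to the TMM-scaled total of the library, and they run over replicates 2, 3, 4 and 5 in TCKO and T and over replicates 1, 2, 4 and 5 in CKO and WT. Fold changes are log2 values ± SE, from edgeR's quasi-likelihood test with Benjamini-Hochberg adjustment over all genes tested, with 4 libraries per group. The SE is not given by edgeR and was derived as the absolute log2 value over the square root of the test's F statistic.

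The entry into the pathway and the mevalonate steps had 5 of 6 members lower in T. Hmgcs1 (ENSMUSG00000093930, GRCm38 chromosome 13, 119690379 to 119708260), the cytosolic synthase of HMG-CoA, had 304, 307, 210.0 and 288 CPM in the TCKO libraries and 99.97, 129.5, 113 and 161 CPM in the T libraries, against 232, 269.6, 249 and 297 CPM in the CKO libraries and 349.9, 233, 244 and 323 CPM in the WT libraries. Its 4 T libraries were the 4 lowest of all 16, and the other groups overlapped one another. In T against WT it fell, with a log2 fold change of -1.19 ± 0.17 (adjusted p = 7.68e-05). Acat2 (chromosome 17, 12942890 to 12960747), the thiolase that joins acetyl-CoA units, had 91.9, 86.7, 71.2 and 91.3 CPM in the TCKO libraries and 53.0, 55.6, 53.1 and 71.9 CPM in the T libraries, against 86.9, 88.9, 83.3 and 87.0 CPM in the CKO libraries and 121, 89.7, 93.2 and 126 CPM in the WT libraries. Every T library lay below every CKO and WT library, and T 5, the highest in T, was just above TCKO 4. The Acat2 change in T against WT was -0.88 ± 0.13 (adjusted p = 0.000116).

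Mevalonate kinase, Mvk, had 18.6, 19.2, 20.6 and 16.6 CPM in the TCKO libraries and 13.3, 13.3, 13.8 and 14.99 CPM in the T libraries, against 16.8, 18.7, 12.2 and 15.9 CPM in the CKO libraries and 21.5, 17.3, 18.6 and 21.6 CPM in the WT libraries. T and WT libraries did not overlap, but CKO 4 was lower than all T libraries. Mvk fell by a log2 fold change of -0.51 ± 0.13 (adjusted p = 0.00818) in T against WT. The decarboxylase Mvd, which makes isopentenyl diphosphate, had 15.9, 17.8, 18.9 and 24.3 CPM in the TCKO libraries and 10.1, 10.04, 9.21 and 11.0 CPM in the T libraries, against 11.0, 13.9, 11.0 and 19.8 CPM in the CKO libraries and 17.5, 13.8, 14.7 and 19.7 CPM in the WT libraries. Its T libraries lay below all TCKO and WT libraries and met the lowest CKO libraries. The Mvd change was -0.70 ± 0.19 (adjusted p = 0.0113). Aacs, which activates the ketone body acetoacetate, was at 29.3 to 46.6 CPM in T libraries and 39.5 to 60.2 CPM in WT libraries. Its groups overlapped, and its change was -0.51 ± 0.18 (adjusted p = 0.0448). The call was lost when any one of 13 libraries was left out, with adjusted p from 0.0501 to 0.149. It was kept without T 5, TCKO 5 or WT 4. DESeq2 size factors (adjusted p = 0.0541), no filter on low counts (0.0707), a filter of 1 CPM in 4 libraries (0.0711) and the compared groups only (0.0803) also lost it. Phosphomevalonate kinase, Pmvk, was at 42.9 to 50.8 CPM in T libraries and 50.1 to 53.6 CPM in WT libraries, with a change of -0.19 ± 0.08 (adjusted p = 0.104).

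**Figure D3:**
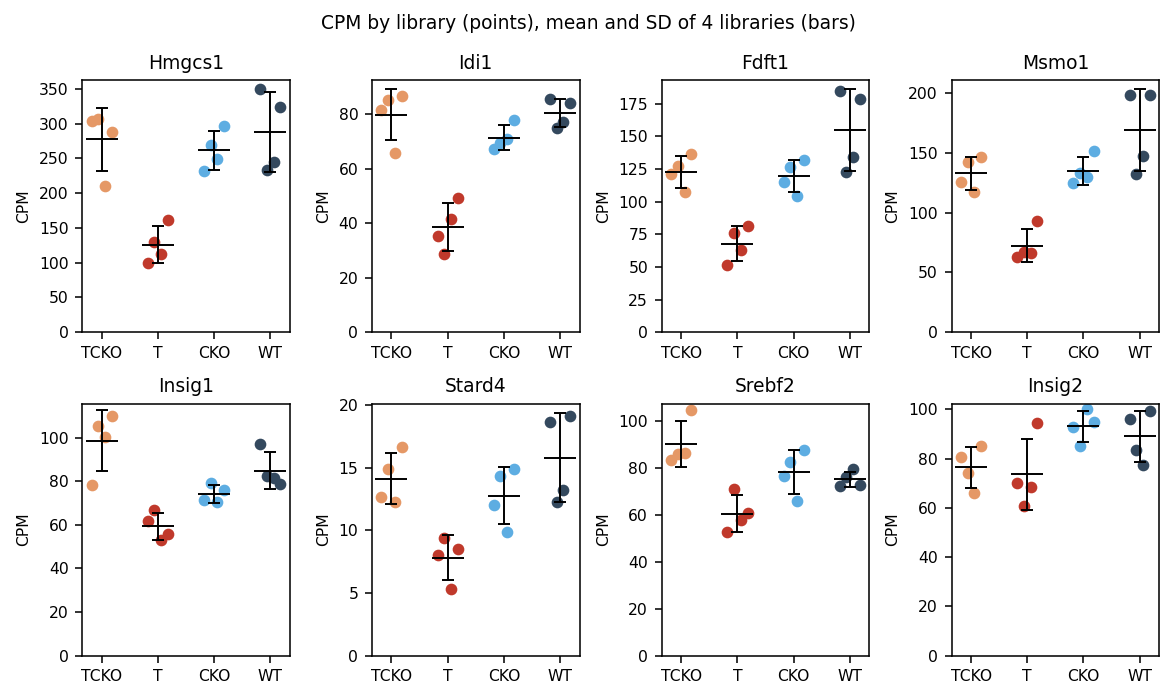
CPM (y axis, from 0) of 8 genes in each library (points) by genotype, with the mean (dash) and SD (bars) of 4 libraries. The T points lie below all other points for Hmgcs1, Idi1, Fdft1, Msmo1, Insig1 and Stard4, and overlap other groups for Srebf2 and Insig2.

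All 3 genes of the isoprenoid steps fell in T. Idi1 (ENSMUSG00000058258, chromosome 13, 8885501 to 8892451), the isomerase of isopentenyl diphosphate, had 81.6, 85.2, 65.9 and 86.6 CPM in the TCKO libraries and 35.3, 28.7, 41.5 and 49.2 CPM in the T libraries, against 67.1, 69.4, 70.8 and 77.9 CPM in the CKO libraries and 85.4, 74.8, 77.0 and 84.1 CPM in the WT libraries. The highest T library was at 49.2 CPM and the lowest library of any other group at 65.9 CPM. Idi1 changed by -1.05 ± 0.13 (adjusted p = 3.39e-05) in T against WT. Farnesyl diphosphate synthase, Fdps, had 99.8, 81.0, 99.4 and 104 CPM in the TCKO libraries and 43.7, 52.2, 54.8 and 66.7 CPM in the T libraries, against 91.0, 88.8, 93.5 and 105 CPM in the CKO libraries and 131, 86.2, 104 and 132 CPM in the WT libraries. Its T libraries were again the 4 lowest of 16, and WT 1 and WT 5 stood above WT 2 and WT 4. The Fdps change was -1.06 ± 0.14 (adjusted p = 5.88e-05). Ggps1, which makes the geranylgeranyl group used to prenylate proteins, was at 89.3 to 101 CPM in T libraries and 117 to 129 CPM in WT libraries. Its change, -0.39 ± 0.10 (adjusted p = 0.0105), lost the call without T 3 (adjusted p = 0.0565).

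The steps that join farnesyl units to squalene and fold it into lanosterol also fell, 3 of 3. Fdft1 (ENSMUSG00000021273, chromosome 14, 63145150 to 63179578), squalene synthase, had 121, 127, 107 and 136 CPM in the TCKO libraries and 51.2, 76.0, 62.7 and 81.7 CPM in the T libraries, against 115, 127, 104 and 132 CPM in the CKO libraries and 185, 123, 134 and 179 CPM in the WT libraries. T libraries were the 4 lowest of 16, and WT 1 and WT 5 were the 2 highest. Its change was -1.19 ± 0.15 (adjusted p = 3.85e-05). Fdft1 shares 774 exon bases, 18.3% of its own, with Ctsb on the opposite strand. Ctsb had 551039.5 reads over all libraries, and counting by strand is not stated, so reads of this stretch cannot be told apart. Squalene epoxidase, Sqle, had 60.8, 70.0, 50.5 and 68.9 CPM in the TCKO libraries and 28.1, 30.9, 31.2 and 46.0 CPM in the T libraries, against 46.7, 54.6, 49.3 and 62.9 CPM in the CKO libraries and 82.8, 58.0, 54.2 and 84.1 CPM in the WT libraries. Its T libraries were the 4 lowest of 16, with CKO 1 next above T 5. Sqle changed by -1.04 ± 0.18 (adjusted p = 0.00052). Lanosterol synthase, Lss, had 15.9, 14.9, 12.5 and 14.3 CPM in the TCKO libraries and 11.3, 10.04, 10.9 and 9.68 CPM in the T libraries, against 12.9, 15.3, 12.8 and 11.9 CPM in the CKO libraries and 19.9, 15.7, 13.2 and 15.9 CPM in the WT libraries. Here CKO 5 was the next library above the T libraries. The Lss change was -0.62 ± 0.13 (adjusted p = 0.00291).

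Among the 9 genes that work on the sterol ring, 7 fell and Lbr and Ebp did not pass. Msmo1 (ENSMUSG00000031604, chromosome 8, 64718139 to 64733792), which oxidises methyl groups of the ring, had 126, 142, 117 and 147 CPM in the TCKO libraries and 63.0, 67.1, 66.4 and 92.9 CPM in the T libraries, against 125, 133, 130.1 and 151 CPM in the CKO libraries and 198, 133, 147 and 199 CPM in the WT libraries. Its T libraries were the 4 lowest of 16, with T 5 above the other T libraries. Msmo1 had the smallest adjusted p of all 27 genes in T against WT, with a change of -1.22 ± 0.15 (adjusted p = 1.66e-05). Lanosterol demethylase, Cyp51, had 77.5, 92.6, 68.0 and 89.4 CPM in the TCKO libraries and 46.7, 47.7, 40.6 and 59.4 CPM in the T libraries, against 66.5, 76.5, 67.3 and 80.0 CPM in the CKO libraries and 91.7, 77.2, 84.0 and 107 CPM in the WT libraries. T libraries were the 4 lowest, and the other groups overlapped. Cyp51 changed by -0.89 ± 0.13 (adjusted p = 0.000148). The sterol desaturase Sc5d had 122, 121, 101 and 122 CPM in the TCKO libraries and 79.2, 80.3, 79.2 and 87.8 CPM in the T libraries, against 116, 119, 123 and 118 CPM in the CKO libraries and 126, 119, 123 and 138 CPM in the WT libraries. Its T libraries were the 4 lowest of 16, with a change of -0.63 ± 0.08 (adjusted p = 2.9e-05).

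Nsdhl, a sterol dehydrogenase, was at 18.8 to 25.7 CPM in T libraries and 28.6 to 50.2 CPM in WT libraries, a change of -0.81 ± 0.16 (adjusted p = 0.00208). Dhcr7, which reduces dehydrocholesterol to cholesterol, was at 27.6 to 39.6 CPM in T and 45.4 to 57.4 CPM in WT libraries, a change of -0.72 ± 0.17 (adjusted p = 0.00586). In both genes the T and WT libraries did not overlap. The sterol reductase Tm7sf2 was at 6.17 to 8.37 CPM in T and 10.02 to 13.6 CPM in WT libraries, and its change of -0.66 ± 0.18 (adjusted p = 0.0129) had an adjusted p of 0.0506 with replicate number as a block. Tm7sf2 shares 532 exon bases, 12.1% of its own, with Vps51 on the same strand, which had 17973.6 reads over all libraries, so its reads there are uncertain. Smaller shares of Ggps1 (5.4%) and Cyp51 (3.8%) lie opposite Arid4b and Akap9, which had 22356.7 and 31988.7 reads. Of Fdps, 26.7% lies in exons of Gm43738, which had 0 reads, as does 1.4% of Lbr in Gm26004 (0 reads). On the opposite strand, 12.1% of Hmgcs1 overlaps Gm48342 (255.2 reads), 9.2% of Idi1 overlaps Gm48574 (17.1) and 9.2% of Lbr overlaps Dnah14 (402.0). Also opposite, 13.2% of Scap overlaps 5830462I19Rik (34.7 reads) and 3.5% of Lss overlaps 4930483K19Rik (6.1). Hsd17b7, a sterol ketone reductase, was at 16.4 to 21.7 CPM in T and 23.1 to 26.8 CPM in WT libraries, a change of -0.39 ± 0.13 (adjusted p = 0.042). The Hsd17b7 call was lost with the block (adjusted p = 0.0951) and without any one of 13 libraries (adjusted p from 0.0509 to 0.121), and it was kept without TCKO 2, TCKO 4 or WT 2. DESeq2 size factors (adjusted p = 0.0523), no filter on low counts (0.115) and a filter of 1 CPM in 4 libraries (0.0624) also lost it. Lbr, a sterol reductase that is also a nuclear envelope protein, changed by -0.34 ± 0.14 (adjusted p = 0.0869) and was called lower without WT 1 (adjusted p = 0.0389). Ebp, a sterol isomerase, changed by -0.15 ± 0.10 (adjusted p = 0.301), with 26.0 to 29.6 CPM in T libraries and 29.1 to 31.8 CPM in WT libraries.

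Of the 4 control genes, Srebf2 and Insig1 fell and Scap and Insig2 did not pass. Insig1 (ENSMUSG00000045294, chromosome 5, 28071363 to 28078662), the retention protein that is itself a SREBP2 target, had 78.3, 106, 101 and 110.1 CPM in the TCKO libraries and 62.0, 66.7, 53.0 and 55.8 CPM in the T libraries, against 71.3, 79.1, 70.5 and 75.9 CPM in the CKO libraries and 97.3, 82.2, 81.4 and 78.9 CPM in the WT libraries. Its T libraries were the 4 lowest of 16, and 3 TCKO libraries were the 3 highest. Insig1 fell in T against WT by a log2 fold change of -0.52 ± 0.11 (adjusted p = 0.00287). Srebf2, the gene of SREBP2, had 52.6 to 70.9 CPM in T libraries and 72.4 to 79.2 CPM in WT libraries. The groups lay just apart, and the change of -0.31 ± 0.11 (adjusted p = 0.0451) lost the call without any one of 12 libraries (adjusted p from 0.0554 to 0.152), keeping it without TCKO 2, TCKO 5, T 3 or CKO 4. The Srebf2 call was also lost with DESeq2 size factors (adjusted p = 0.0525) and with the compared groups only (0.0656). Without a filter on low counts (0.142) or with a filter of 1 CPM in 4 libraries (0.0869) it was lost too. Scap, the escort, changed by 0.26 ± 0.15 (adjusted p = 0.248) and was the only member with a value above 0. Insig2, the paralog of Insig1, changed by -0.28 ± 0.13 (adjusted p = 0.13), and without T 5, its highest T library, it was called lower (adjusted p = 0.0106).

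Both sterol transport genes fell. Stard4 (ENSMUSG00000024378, chromosome 18, 33199355 to 33213862), a cytosolic sterol carrier, had 12.7, 14.9, 12.2 and 16.6 CPM in the TCKO libraries and 8.02, 9.42, 5.28 and 8.52 CPM in the T libraries, against 12.04, 14.4, 9.82 and 14.8 CPM in the CKO libraries and 18.6, 12.2, 13.2 and 19.1 CPM in the WT libraries. T libraries were the 4 lowest of 16, and the change was -1.02 ± 0.20 (adjusted p = 0.00162). Tmem97, a sterol-regulated membrane protein, was at 13.02 to 19.7 CPM in T and 21.2 to 26.6 CPM in WT libraries, a change of -0.45 ± 0.12 (adjusted p = 0.0137). It missed the threshold without WT 1 (adjusted p = 0.0502) and with the compared groups only (0.0606).

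Leaving out libraries that stood apart lowered the count of members called. Without WT 1 and WT 5, the libraries low in oligodendrocyte markers, 10 members were called lower in T, and without the choroid-rich T 4 and WT 1 there were 15. Across all 26 alternatives run for this comparison, Acat2, Hmgcs1, Idi1, Fdps, Fdft1, Sqle, Cyp51, Msmo1 and Sc5d were called lower in each. The change of Msmo1 without WT 1 and WT 5 was -0.90 ± 0.15 (adjusted p = 0.00103), and Lbr was called as well, at -0.50 (adjusted p = 0.0422). The other 13 members lost their calls in that fit. Dhcr7 was then at -0.61 (adjusted p = 0.0853), Insig1 at -0.41 (0.06), Stard4 at -0.65 (0.0729), Lss at -0.41 (0.0989), Nsdhl at -0.40 (0.103) and Ggps1 at -0.34 (0.117). Tmem97 was at -0.37 (adjusted p = 0.137), Srebf2 at -0.31 (0.174), Tm7sf2 at -0.46 (0.194), Mvk at -0.33 (0.203), Mvd at -0.45 (0.224), Hsd17b7 at -0.31 (0.285) and Aacs at -0.24 (0.514). Without T 4 and WT 1, 8 members lost their calls and Lbr was called (-0.47, adjusted p = 0.0483). There Dhcr7 was at -0.63 (adjusted p = 0.0592), Mvk at -0.45 (0.0674), Mvd at -0.61 (0.0783) and Ggps1 at -0.35 (0.0975). Tm7sf2 was at -0.47 (adjusted p = 0.119), Srebf2 at -0.29 (0.158), Aacs at -0.44 (0.181) and Hsd17b7 at -0.30 (0.238). In WT itself, 18 members had both WT 1 and WT 5 above both WT 2 and WT 4. The share of all genes with this order was not counted.

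**Figure D4:**
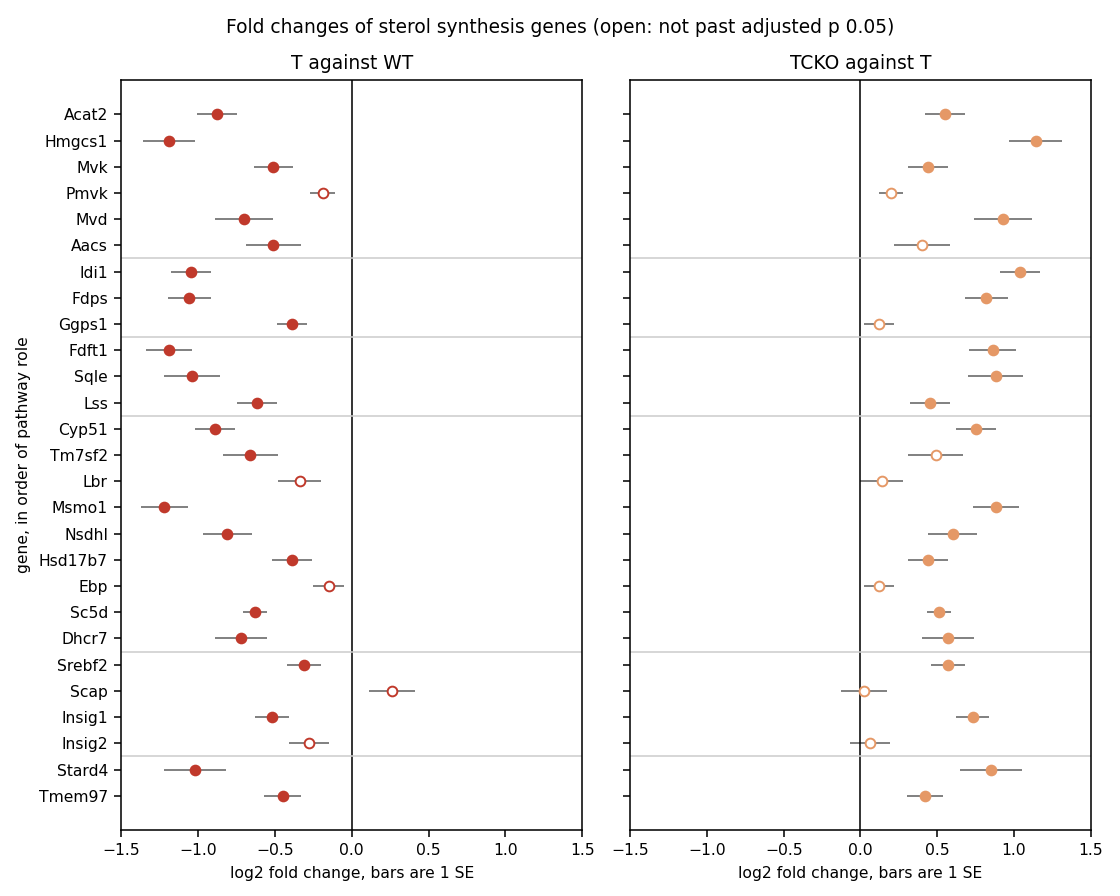
Log2 fold changes (x axis, points) with 1 SE (bars) of the 27 genes for T against WT (left) and TCKO against T (right), filled where the adjusted p was under 0.05. The left panel has 22 filled points, all below 0, and the right panel has 19, all above 0.

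The second comparison asks what loss of Ch25h changes in tau transgenic mice. Sterol synthesis genes rose in TCKO against T: 19 of 27 were called higher, 0 lower, and Pmvk, Aacs, Ggps1, Tm7sf2, Lbr, Ebp, Scap and Insig2 did not pass. Hmgcs1 rose 2.20-fold and Idi1 2.06-fold, and Mvd rose 1.90-fold. Over all genes tested, 4.81% were called higher, and the median log2 fold change was 0.55 for the members and 0.02 for all genes tested. In 16 members the TCKO and T libraries did not overlap, against 5.14% of all genes in this direction. This comparison and that of T with WT share the 4 T libraries, so their values are set side by side and not correlated.

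Hmgcs1 averaged 277 ± 45.6 CPM in TCKO libraries and 126 ± 26.3 CPM in T libraries (SD, n = 4 each), a change of 1.14 ± 0.17 (adjusted p = 0.000241). Among the other mevalonate genes, Mvd rose by 0.93 ± 0.19 (adjusted p = 0.00326), Acat2 by 0.55 ± 0.13 (adjusted p = 0.00971) and Mvk by 0.44 ± 0.13 (adjusted p = 0.0329). Idi1 averaged 79.8 ± 9.53 CPM in TCKO libraries and 38.7 ± 8.73 CPM in T libraries (SD, n = 4 each), a change of 1.04 ± 0.13 (adjusted p = 8.77e-05). Every TCKO library of Hmgcs1 and Idi1 lay above every T library, whereas Acat2 overlapped through TCKO 4 and T 5. Fdps rose by 0.82 ± 0.14 (adjusted p = 0.00108), Sqle by 0.88 ± 0.18 (adjusted p = 0.00339), Fdft1 by 0.86 ± 0.15 (adjusted p = 0.00136) and Lss by 0.45 ± 0.13 (adjusted p = 0.0332). Ggps1, at the branch to protein prenylation, was at 78.6 to 121 CPM in TCKO and 89.3 to 101 CPM in T libraries, a change of 0.12 ± 0.10 (adjusted p = 0.492).

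Msmo1 averaged 133 ± 13.9 CPM in TCKO libraries and 72.4 ± 13.8 CPM in T libraries (SD, n = 4 each), a change of 0.88 ± 0.15 (adjusted p = 0.000704). Of the other ring enzymes, Cyp51 rose by 0.75 ± 0.13 (adjusted p = 0.00117), Nsdhl by 0.60 ± 0.16 (adjusted p = 0.025), Dhcr7 by 0.57 ± 0.17 (adjusted p = 0.0347), Sc5d by 0.51 ± 0.08 (adjusted p = 0.000399) and Hsd17b7 by 0.44 ± 0.13 (adjusted p = 0.0416). TCKO 4 was the lowest TCKO library for 17 of the 27 members, and for Dhcr7 it had 28.7 CPM against 52.6 to 57.0 in the other 3 TCKO libraries. Srebf2 had 83.4, 86.0, 86.1 and 105 CPM in the TCKO libraries and 52.6, 70.9, 57.8 and 60.5 CPM in the T libraries. These groups did not overlap, and Srebf2 rose by 0.57 ± 0.11 (adjusted p = 0.00206). Insig1 averaged 98.6 ± 14.1 CPM in TCKO libraries and 59.4 ± 6.17 CPM in T libraries (SD, n = 4 each), a change of 0.73 ± 0.11 (adjusted p = 0.000311). Stard4 rose by 0.85 ± 0.20 (adjusted p = 0.00969) and Tmem97 by 0.42 ± 0.12 (adjusted p = 0.037).

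The calls of 13 of the 19 members were kept in all 26 alternatives: Acat2, Hmgcs1, Mvd, Idi1, Fdps, Fdft1, Sqle, Cyp51, Msmo1, Sc5d, Srebf2, Insig1 and Stard4. The other 6 were each lost without some single libraries. Fitted with the compared groups only, Mvk (adjusted p = 0.0602), Lss (0.086), Tmem97 (0.123), Dhcr7 (0.148) and Hsd17b7 (0.169) were lost as well. Without a filter on low counts Hsd17b7 (0.104), Mvk (0.112), Tmem97 (0.118) and Lss (0.127) were lost. Limma voom did not call Hsd17b7 (0.0531) or Dhcr7 (0.0571). Nsdhl lost its call without TCKO 2, TCKO 3, TCKO 5, T 2, T 3 or T 4 (adjusted p between 0.0569 and 0.0829). Lss was lost without any T library, TCKO 2, TCKO 3, TCKO 5 or CKO 1 (0.0529 to 0.0924), and Mvk without TCKO 2, TCKO 3, TCKO 4, T 2, T 3, T 4, CKO 1 or CKO 5 (0.0501 to 0.0984). Tmem97 was lost without any TCKO library, T 2, T 5, CKO 1 or CKO 4 (0.0513 to 0.124). Dhcr7 was lost without 9 libraries (0.0512 to 0.107) and kept without TCKO 4, T 5, CKO 2 or any WT library. Hsd17b7 was lost without 11 (0.0501 to 0.145) and kept without TCKO 3, TCKO 4, T 5, WT 2 or WT 5. Without T 5, the highest T library for 17 members, Aacs (adjusted p = 0.0383) and Tm7sf2 (adjusted p = 0.0495) were called higher as well. Without T 4 and WT 1 the calls of Lss (0.47, adjusted p = 0.0561), Mvk (0.42, 0.0879), Dhcr7 (0.50, 0.137) and Hsd17b7 (0.36, 0.17) were lost. Without WT 1 and WT 5 those of Mvk (0.39, adjusted p = 0.0588), Tmem97 (0.37, 0.0669), Dhcr7 (0.53, 0.0675) and Hsd17b7 (0.39, 0.0912) were lost.

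Loss of Ch25h without the transgene left the members uncalled. In CKO against WT 0 of 27 passed edgeR's quasi-likelihood test, DESeq2 or limma voom, with 7 at an unadjusted p under 0.05. Over all genes tested 0.0108% were called and 11.3% had an unadjusted p under 0.05. Log2 fold changes ran from -0.39 (Sqle) to 0.08 (Hsd17b7), with a median of -0.19 and 23 of 27 below 0. Hmgcs1 averaged 262 ± 28.1 CPM in CKO and 288 ± 57.7 CPM in WT libraries (SD, n = 4 each), a change of -0.13 ± 0.16 (adjusted p = 0.797). Sqle was at -0.39 ± 0.18 (adjusted p = 0.427) and Fdft1 at -0.37 ± 0.15 (adjusted p = 0.383). Only Acat2 and Ggps1 had every CKO library below every WT library, and such separation was seen in 4.06% of all genes.

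Transgenic mice without Ch25h were also set against each group without the transgene. In TCKO against CKO 0 of 27 members passed edgeR's quasi-likelihood test, with 3 at an unadjusted p under 0.05 (17.5% of all genes), 1 called by DESeq2 and 0 by limma voom, and 0.539% of all genes tested were called. The member called by DESeq2 was Insig1, at 78.3 to 110.1 CPM in TCKO and 70.5 to 79.1 CPM in CKO libraries, with a change of 0.41 ± 0.11 (adjusted p = 0.0843) in edgeR. Its adjusted p was 0.0186 in DESeq2, and 0.0476 in edgeR without TCKO 2. The other members ran from -0.28 (Insig2) to 0.46 (Mvd) on the log2 scale. In TCKO against WT 0 members passed edgeR's quasi-likelihood test, DESeq2 or limma voom, 5 had an unadjusted p under 0.05 (15.2% of all genes), and 0.302% of all genes were called. There the median was -0.14, from -0.35 (Msmo1) to 0.28 (Scap). Hmgcs1 changed by -0.05 ± 0.16 (adjusted p = 0.913) and Idi1 by -0.01 ± 0.13 (adjusted p = 0.985) in that comparison, while Acat2 changed by -0.33 ± 0.13 (adjusted p = 0.241). Srebf2 alone among the 27 had every TCKO library above every WT library, as did 3.14% of all genes, with a change of 0.26 ± 0.11 (adjusted p = 0.271).

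The interaction tests whether the transgene's effect differs with and without Ch25h, as TCKO minus CKO less T minus WT on the log2 scale. It was called for 14 members, all with positive values, and for 0 with negative ones, against 0.695% of all genes called positive. The called genes were Acat2, Hmgcs1, Mvk, Mvd, Idi1, Fdps, Fdft1, Sqle, Lss, Cyp51, Msmo1, Sc5d, Insig1 and Stard4, which leaves Pmvk as the only listed enzyme of the main line from HMG-CoA synthesis to lanosterol demethylation that was not called. The median over the 27 members was 0.75, against 0.03 over all genes tested. Hmgcs1 had 1.27 ± 0.23 (adjusted p = 0.00717), Idi1 1.22 ± 0.19 (adjusted p = 0.00366), Fdft1 1.23 ± 0.22 (adjusted p = 0.00611), Msmo1 1.20 ± 0.21 (adjusted p = 0.00544) and Insig1 0.93 ± 0.16 (adjusted p = 0.00508). Among members not called, Nsdhl was at 0.83 ± 0.23 (adjusted p = 0.0622), Srebf2 at 0.52 ± 0.15 (adjusted p = 0.075), Dhcr7 at 0.76 ± 0.24 (adjusted p = 0.0896) and Scap at 0.00 ± 0.22. DESeq2 did call Nsdhl (adjusted p = 0.0234), Srebf2 (0.0312), Dhcr7 (0.0476) and Tmem97 (0.0484). In edgeR, Nsdhl was called without T 5, WT 2 or WT 4 (adjusted p from 0.027 to 0.0419). Dhcr7 was called there without TCKO 4 (adjusted p = 0.00844) or T 5 (0.0414).

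In each fit that left out 1 library, Acat2, Hmgcs1, Idi1, Fdps, Fdft1, Sqle, Cyp51, Msmo1, Sc5d and Insig1 stayed called for the interaction. The other 4 did not: Lss was lost without 12 libraries (adjusted p from 0.0593 to 0.0923) and kept without TCKO 4, T 5, CKO 2 or WT 4, and Mvk was lost without 10 (0.0567 to 0.0785) and kept without TCKO 2, TCKO 5, T 5, CKO 2, WT 2 or WT 4. Stard4 was lost without 9 (0.0508 to 0.0745) and kept without TCKO 2, TCKO 4, T 3, T 5, CKO 5, WT 2 or WT 4, and Mvd was lost without TCKO 5, T 2, T 3, CKO 1, CKO 4 or WT 5 (0.0506 to 0.0571). With replicate number as a block, Mvk had an adjusted p of 0.0557. Without a filter on low counts Mvk (adjusted p = 0.0746) and Lss (0.104) were lost. Lss was also lost with upper quartile scaling (0.052) and with a filter of 1 CPM in 4 libraries (0.0511). Without the choroid-rich T 4 and WT 1 the interaction was called for 9 members, and Mvd (1.10, adjusted p = 0.0663), Acat2 (0.77, 0.0672), Stard4 (0.94, 0.0831), Mvk (0.72, 0.0855) and Lss (0.67, 0.099) were lost. Without WT 1 and WT 5, the libraries low in oligodendrocyte markers, it was called for 5: Idi1, Fdft1, Cyp51, Msmo1 and Insig1. Hmgcs1 was then at 0.95 (adjusted p = 0.0511), Fdps at 0.78 (0.0578), Sqle at 0.89 (0.0771), Sc5d at 0.48 (0.0775) and Acat2 at 0.57 (0.11). Mvd was at 0.90 (adjusted p = 0.128), Mvk at 0.55 (0.187), Stard4 at 0.79 (0.189) and Lss at 0.52 (0.2).

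Levels between genes were compared per length, as the deposited TPM. In TCKO libraries Fdps, Msmo1 and Hmgcs1 averaged 116 ± 12.2, 106 ± 10.9 and 124 ± 20.2 TPM (SD, n = 4), and in T libraries 62.1 ± 11.6, 53.5 ± 11.6 and 54.4 ± 13.7 TPM, against 129 ± 25.9, 127 ± 27.7 and 126 ± 28.0 TPM in WT libraries. These 3 had the highest TPM of the 27 genes in TCKO, CKO and WT and did not differ from one another beyond their spread in WT. Pmvk, at 58.1 ± 5.14 TPM in T libraries and 64.8 ± 2.96 TPM in WT libraries, came between Fdps and Hmgcs1 in T and next below Acat2 in WT. The least abundant members were Stard4, at 4.17 ± 1.09 TPM, Lss, at 6.33 ± 2.03 TPM, and Scap, at 6.88 ± 0.967 TPM in WT libraries. Lss averaged 3.98 ± 1.20 TPM in TCKO, 3.38 ± 0.795 TPM in T and 4.13 ± 0.799 TPM in CKO libraries. Its rise in TCKO against T, called on counts, was thus within the spread of TPM. Summed over the 27 genes, the level was 1004 to 1205 TPM in TCKO libraries, 617 to 819 TPM in T libraries, 1081 to 1232 TPM in CKO libraries and 1033 to 1349 TPM in WT libraries, so that T stood apart and the other groups overlapped.

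Within a group, the same libraries were the highest or lowest for many members. T 5 was the highest T library for 17 of 27 members and T 2 the lowest for 10. In WT, WT 5 was the highest for 14 members, WT 1 for 9, and WT 2 the lowest for 16. The T mean was the lowest of the 4 group means for 25 members, the exceptions being Ebp, lowest in CKO, and Scap, lowest in WT. The WT mean was the highest for 20 members and the TCKO mean for 5. These counts were made over the members only, and the shares over all genes were not counted.

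Cell type markers also differed between groups, neuron markers in the direction of these genes and astrocyte and microglia markers in the opposite one. The values stand here because bulk tissue mixes cell types. Neuron markers, 8 genes such as Snap25 and Syt1, summed to 7601 to 10830 CPM in TCKO libraries, 4821 to 7812 CPM in T libraries, 9126 to 10067 CPM in CKO libraries and 7943 to 9235 CPM in WT libraries. In T against WT 2 of the 8 were called lower, against 11.2% of all genes tested. In TCKO against T 2 of the 8 were called higher, against 4.81% of all genes tested. Neuron marker sums were thus lower in T than in every other library, apart from TCKO 4, which was below T 5, and the median log2 fold change of these markers was -0.35 in T against WT and 0.48 in TCKO against T. Oligodendrocyte markers summed to 13501 to 17773 CPM in TCKO, 10164 to 22180 CPM in T, 5301 to 8895 CPM in CKO and 3562 to 15683 CPM in WT libraries. Of these 9 markers 5 were called higher in T against WT and 0 in either direction in TCKO against T by edgeR's test, DESeq2 or limma voom, with 0 at an unadjusted p under 0.05. WT 2 and WT 4, at 13341 and 15683 CPM, lay within the range of the T libraries. Every TCKO library lay above every CKO library in the oligodendrocyte marker sum. In TCKO against CKO 0 of the 9 markers passed edgeR's test, 3 were called by DESeq2 and 0 by limma voom. All 9 had an unadjusted p under 0.05 in edgeR, against 17.5% of all genes, with a median log2 fold change of 1.02. Over all genes tested, 24.2% were called in either direction in T against WT and 12.9% in TCKO against T. Astrocyte markers summed to 3896 to 6881 CPM in TCKO, 9540 to 12709 CPM in T, 3424 to 3761 CPM in CKO and 3771 to 4348 CPM in WT libraries, with 4 of 7 higher in T against WT and 4 of 7 lower in TCKO against T. For microglia markers the sums were 704.7 to 1217 CPM, 2311 to 3090 CPM, 566 to 615 CPM and 504 to 711 CPM in the same order of groups, with 7 of 8 higher in T against WT and 6 of 8 lower in TCKO against T. The part of these cell types in the fall and rise of the sterol genes was not tested.

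**Figure D5:**
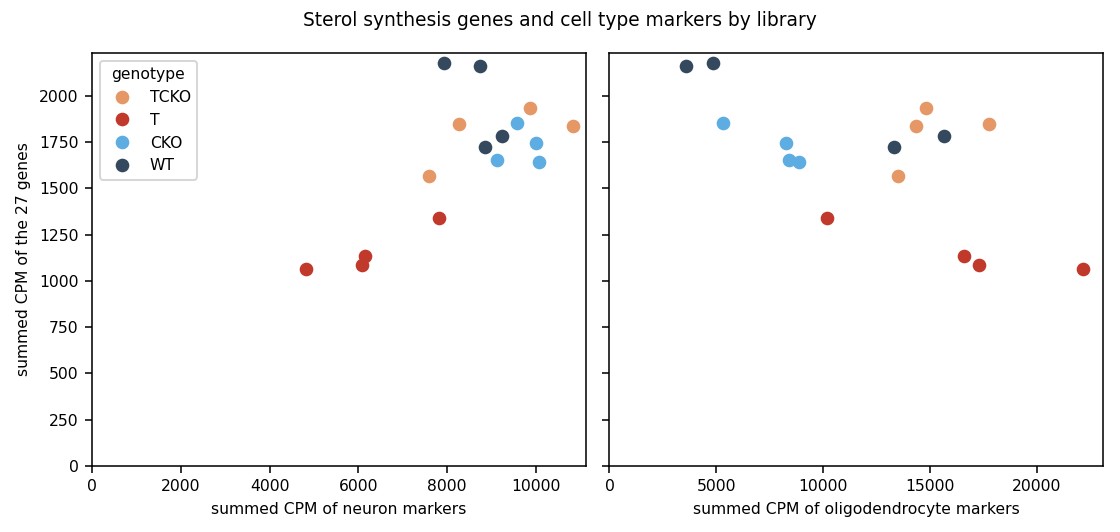
Summed CPM of the 27 genes (y axis) against summed CPM of 8 neuron markers (left) and 9 oligodendrocyte markers (right), 1 point per library, coloured by genotype. The T libraries, at 1066 to 1339 CPM, lie below the TCKO (1567 to 1937 CPM), CKO (1642 to 1852 CPM) and WT libraries (1726 to 2176 CPM), and WT 1 and WT 5 are the highest points and the lowest in oligodendrocyte markers.

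Set against neuron markers, fewer members stood apart. The 27 genes together were at 169.6 to 223.5 CPM per 1000 CPM of neuron markers in TCKO libraries, 171.4 to 221.1 in T libraries, 163.1 to 193.5 in CKO libraries and 193.4 to 274.0 in WT libraries, so T overlapped with every other group. Hmgcs1, Idi1, Fdps, Fdft1 and Msmo1 still had every T library below every WT library on this scale, 5 of 27 members against 0.506% of all genes tested. Scap had every T library above, 1 of 27 members against 29.6% of all genes. Hmgcs1 was at 28.1, 37.1, 27.6 and 29.2 CPM per 1000 CPM of neuron markers in TCKO libraries and at 20.7, 21.0, 18.6 and 20.6 in T libraries, against 44.0, 26.3, 26.4 and 37.0 in WT libraries. Hmgcs1, Idi1 and Fdps had every TCKO library above every T library, as did 0.135% of all genes, and Ggps1 and Insig2 every TCKO library below, as did 23.1% of all genes.

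Other genes of sterol and lipid metabolism, from lists of 6 to 12 genes, moved less uniformly. In either direction, 24.2% of all genes tested were called in T against WT and 12.9% in TCKO against T. Of 8 SREBP processing genes, 2 were higher and 0 lower in T against WT, among them Srebf1, the gene of the related factor SREBP1, at 1.48 ± 0.20 (adjusted p = 5.35e-05). In TCKO against T Srebf1 changed by -0.74 ± 0.20 (adjusted p = 0.0189), a call lost without TCKO 2, TCKO 5, T 2 or T 4 (adjusted p between 0.0511 and 0.0706). The signs of Srebf1 and Srebf2 were opposite in both comparisons. Of 6 acetyl-CoA supply genes, 1 was higher and 1 lower in T against WT, the lower one being Acly, ATP citrate lyase, at -0.55 ± 0.10 (adjusted p = 0.000836), and 2 were higher and 0 lower in TCKO against T, with Acly at 0.42 ± 0.10 (adjusted p = 0.00946). Of 12 genes that use isoprenoids, 1 was higher and 3 were lower in T against WT, and in TCKO against T 0 passed edgeR's test, with 4 at an unadjusted p under 0.05, 1 called by DESeq2 and 0 by limma voom.

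Genes of sterol turnover and export had 4 of 8 higher and 0 lower in T against WT, and 0 higher and 2 lower in TCKO against T. Their median log2 fold changes were 0.56 and -0.21. Abca1, a cholesterol exporter that liver X receptors induce, changed by 2.44 ± 0.25 (adjusted p = 4.07e-06) in T against WT and by -2.26 ± 0.25 (adjusted p = 3.47e-05) in TCKO against T, with an interaction of -2.28 ± 0.34 (adjusted p = 0.0034). Soat1, which esterifies cholesterol for storage, changed by 0.69 ± 0.12 (adjusted p = 0.000722) in T against WT and by -0.68 ± 0.12 (adjusted p = 0.00138) in TCKO against T. Both were higher in T, where the called synthesis enzymes were lower. Of 8 fatty acid genes controlled by SREBP1, 0 were higher and 1 lower in T against WT, and 3 were higher and 0 lower in TCKO against T. Fads1, a fatty acid desaturase, was at -0.37 ± 0.11 (adjusted p = 0.0186) in T against WT, lost without T 2, T 3 or WT 2 (adjusted p from 0.0589 to 0.0762), and at 0.56 ± 0.11 (adjusted p = 0.00209) in TCKO against T.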

How the data were processed

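Right hippocampal RNA of 16 libraries was sequenced after oligo-dT SMARTer Ultra Low library preparation, per the labels' protocols. The submitters' processing notes list bcl2fastq, STAR (2.5.1a), Subread, featureCounts (1.4.6-p5) and the mouse build GRCm38, but not which tool did what. For the estimated counts, the program, annotation and strand setting were not given in any source used here. Deposited by the authors were estimated counts per gene, with TPM and effective length per library, as the file headers show. The series table held 55774 lines for 55487 genes. The 287 repeated lines held identical values, and each gene was kept once. Its values equalled those of the per-sample files.

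After rounding to integers, the counts entered a single edgeR 4.0.16 model (R 4.3.3) with TMM scaling, filterByExpr and 1 mean per genotype. Quasi-likelihood F-tests gave the 5 pairs of groups and the interaction, with Benjamini-Hochberg adjustment over 18565 genes and a threshold of 0.05. Library totals of 15064309 to 34348284 reads set the counting precision. Alternatives were DESeq2 1.42.0, limma 3.58.1 with voom, DESeq2 size factors or upper quartile scaling in edgeR, no filter or a filter of 1 CPM in 4 libraries, the compared groups only, a block of replicate numbers, and the omission of each library. Omitting the choroid-rich T 4 and WT 1, or WT 1 and WT 5, was chosen after seeing the data. The count test was tested on simulated data with known changes.

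All 27 members are named. Per-library values are given for the member with the smallest adjusted p of each role in T against WT and for every member called in the interaction. The members and gene lists were chosen with earlier results of these data known, and some pathway genes are not reported here. Deviations from the group mean were correlated between libraries that share a number. The values were 0.121, 0.137 and 0.304 for T with WT and 0.101 to 0.143 for T with CKO, while every other pair of groups had at least 1 value under 0.1. Values over 0.1 throughout were treated as possible pairing, and T with WT and T with CKO met this rule. Libraries with different numbers were not correlated, so the check cannot show that the numbers pair libraries. No result sets T directly against CKO. Blocked values stand beside the calls of T against WT and of the interaction that they change. Gene coordinates and exon overlaps came from GENCODE M21 on GRCm38, and promoter windows from RefSeq on GRCm38.p6.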

Additional observations from a re-analysis of the deposited data

Results flagged for a closer look

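In 7 of 108 checks of a gene within a group of 4 libraries, 1 library lay far from the other 3, with a gap to the nearest library above Dixon's critical share of the group's range. For independent checks chance gives about 1 in 20. Here the checks of a group share the same libraries, so this rate cannot be used to judge the count. T 5 was the high library for Acat2 (71.9 CPM), Sqle (46.0 CPM), Msmo1 (92.9 CPM) and Sc5d (87.8 CPM). TCKO 4 was the low library for Sc5d (100.9 CPM) and Dhcr7 (28.7 CPM). TCKO 5 was the high library for Srebf2 (104.6 CPM).

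For 14 genes the effect of the transgene differed between mice without and with Ch25h by the interaction test in edgeR, with a positive log2 value in each. The interaction was 0.86 for Acat2, 1.27 for Hmgcs1, 0.75 for Mvk, 1.16 for Mvd, 1.22 for Idi1, 1.08 for Fdps and 1.23 for Fdft1. It was 1.26 for Sqle, 0.74 for Lss, 1.06 for Cyp51, 1.20 for Msmo1, 0.60 for Sc5d, 0.93 for Insig1 and 1.16 for Stard4.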

How the results depend on the processing

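No member's called fold change turned its sign under any alternative. When each library was left out in turn, members called numbered 19 to 21 in T against WT (22 with all libraries), 13 to 19 in TCKO against T (19), 0 in CKO against WT, 0 to 1 in TCKO against CKO, 0 in TCKO against WT and 10 to 16 in the interaction (14). Other alternatives gave 10 to 22, 14 to 19, 0, 0 to 1, 0 and 5 to 18. Without the WT libraries low in oligodendrocyte markers 10 members were called in T against WT and 5 in the interaction. Without the choroid-rich libraries 9 were called in the interaction. Both omissions leave fewer libraries in T or WT, and the cause was not tested further. DESeq2 called 1 member in TCKO against CKO, as did the fit without TCKO 2, and the cause was not tested. Every member had at least 119 reads in each library, and each group held 4 libraries.

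With replicate number as a block, 20 members were called in T against WT, 17 in TCKO against T, 13 in the interaction and 0 in the other comparisons. Correlations of libraries that share a number were not over 0.1 throughout for TCKO with T. There the block lost Mvk (adjusted p = 0.0576), Hsd17b7 (0.0677) and Tmem97 (0.0604) and gained Aacs (0.0274). Apart from these and the calls named in the report, the block changed no other member's call. Fitting only the compared groups gave 19 and 14 members in T against WT and TCKO against T, and cannot be done for the interaction.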
